A study of Mus musculus with 15 samples.

Results

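The 9 genes Sod1, Sod2, Sod3, Cat, Gpx1, Gpx3, Gpx4, Gpx7 and Gpx8 encode enzymes that remove superoxide and peroxides, and they were described here as a named set among the 19938 genes measured. All 9 were found, each by the array probe set that named only that gene and had the highest mean over all arrays. The RNA came from cultured mouse cardiac fibroblast colonies (cCFU-F, heart stromal cells able to found a colony from sparse plating), sorted as SCA1+PDGFRα+CD31- from male C57BL/6 mice of 12 weeks, with 1 Affymetrix array a sample. Each of 5 groups had 3 arrays. Large colonies were untreated and sampled at passages 5 and 15. Small colonies were sampled untreated at passage 5, and under PDGF-AB (a platelet-derived growth factor, at 50 ng/ml) at both passages. With no untreated small group at passage 15, size and PDGF-AB cannot be told apart in the contrast of treated small with large colonies at that passage, nor in the difference between their passage changes. In treated small colonies, likewise, passage cannot be told apart from any longer time under PDGF-AB. Separate animals or cultures behind the arrays of a group are not stated in the labels, and the spread that p-values rest on may therefore be technical.

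Superoxide is formed when oxygen takes up a single electron, at the respiratory chain and at NADPH oxidases among other places. Superoxide dismutases turn it into hydrogen peroxide, with copper and zinc as cofactors in SOD1 and SOD3 and manganese in SOD2, and catalase and the glutathione peroxidases then reduce the peroxide. SOD3 and GPX3 are secreted and act in the matrix and the fluid around cells, GPX7 and GPX8 belong to the endoplasmic reticulum (ER), and the other 5 work in the cytosol, mitochondria, peroxisomes or nucleus. GPX1, GPX3 and GPX4 carry selenocysteine at the active site, and GPX7 and GPX8 carry cysteine there.

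Promoter sequences from RefSeq (GRCm38.p6) were at hand for 8 of the 9 genes, Sod3 being the exception. They are shown for 3 of them, as the 250 bases before the annotated start, 5′ to 3′ on the strand of the gene. Gpx3 and Gpx7 were chosen because their levels varied most among the 8 genes, and Sod1 because it held the only motif match. Capitals mark that match.
Gpx3, chr11:54902604-54902853, plus strand: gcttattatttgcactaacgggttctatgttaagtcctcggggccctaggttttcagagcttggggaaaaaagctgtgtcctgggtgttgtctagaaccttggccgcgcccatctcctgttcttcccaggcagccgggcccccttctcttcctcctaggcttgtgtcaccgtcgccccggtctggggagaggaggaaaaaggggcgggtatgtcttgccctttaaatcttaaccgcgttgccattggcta
Gpx7, chr4:108406714-108406963, minus strand: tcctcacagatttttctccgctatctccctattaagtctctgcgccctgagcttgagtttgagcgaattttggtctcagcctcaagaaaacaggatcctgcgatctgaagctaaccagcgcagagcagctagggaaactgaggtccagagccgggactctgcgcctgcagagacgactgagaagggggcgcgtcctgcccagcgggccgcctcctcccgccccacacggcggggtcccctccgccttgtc
Sod1, chr16:90220512-90220761, plus strand: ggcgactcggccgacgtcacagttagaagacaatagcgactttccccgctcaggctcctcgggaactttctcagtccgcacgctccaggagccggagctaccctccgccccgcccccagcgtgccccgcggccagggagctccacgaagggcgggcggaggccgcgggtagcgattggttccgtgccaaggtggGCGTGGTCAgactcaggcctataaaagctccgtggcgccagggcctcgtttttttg
The motifs searched on both strands of the 300-base windows (250 before to 50 after the start) were TGACNNNGC, the core of the antioxidant response element bound by NRF2, TGANTCA, the AP-1 site, and GTAAACA, a forkhead site. Of 32841 windows of that length 12.4% held the first, 7.81% the second and 3.65% the third. Over the 11 windows of the 8 genes there was 1 match, to the antioxidant response element core on the minus strand of the Sod1 window, starting 56 bases before the start. The windows of Gpx3 and Gpx7 held no match, which says only that these letters are not in them. The G and C content was 56.3% for Gpx3, 60.3% for Gpx7 and 66.7% for Sod1, against a median of 52.7% over all windows.

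Values are log2 intensities, groups are summarised as mean ± SD (n = 3), and changes are log2 differences with the standard error (SE) of a limma fit over all 15 arrays. A gene was called changed at an adjusted p under 0.05 (limma, Benjamini-Hochberg over 19938 genes, 2-sided). Array medians lay between 5.59 and 5.72, and lower quartiles between 4.06 and 4.23. Xist, which coats the silenced X in females, ranged from 8.93 to 10.88 on the 15 arrays and 4 Y-linked genes from 2.24 to 3.42, which goes against the male label of all samples. The 6 fibroblast markers (Pdgfra, Col1a1, Col1a2, Dcn, Lum and Thy1) were all above the median level in their mean over the 15 arrays. In the small groups, however, Thy1 averaged between 5.11 and 5.49, below that level (6). Of other markers, 4 of 5 smooth muscle, 3 of 5 pericyte, 3 of 6 leukocyte, 1 of 5 cardiomyocyte and 1 of 5 mesothelial or epicardial ones were above it. For 6 endothelial, 5 adipocyte and 2 Schwann markers the count was 0.

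**Figure D1:**
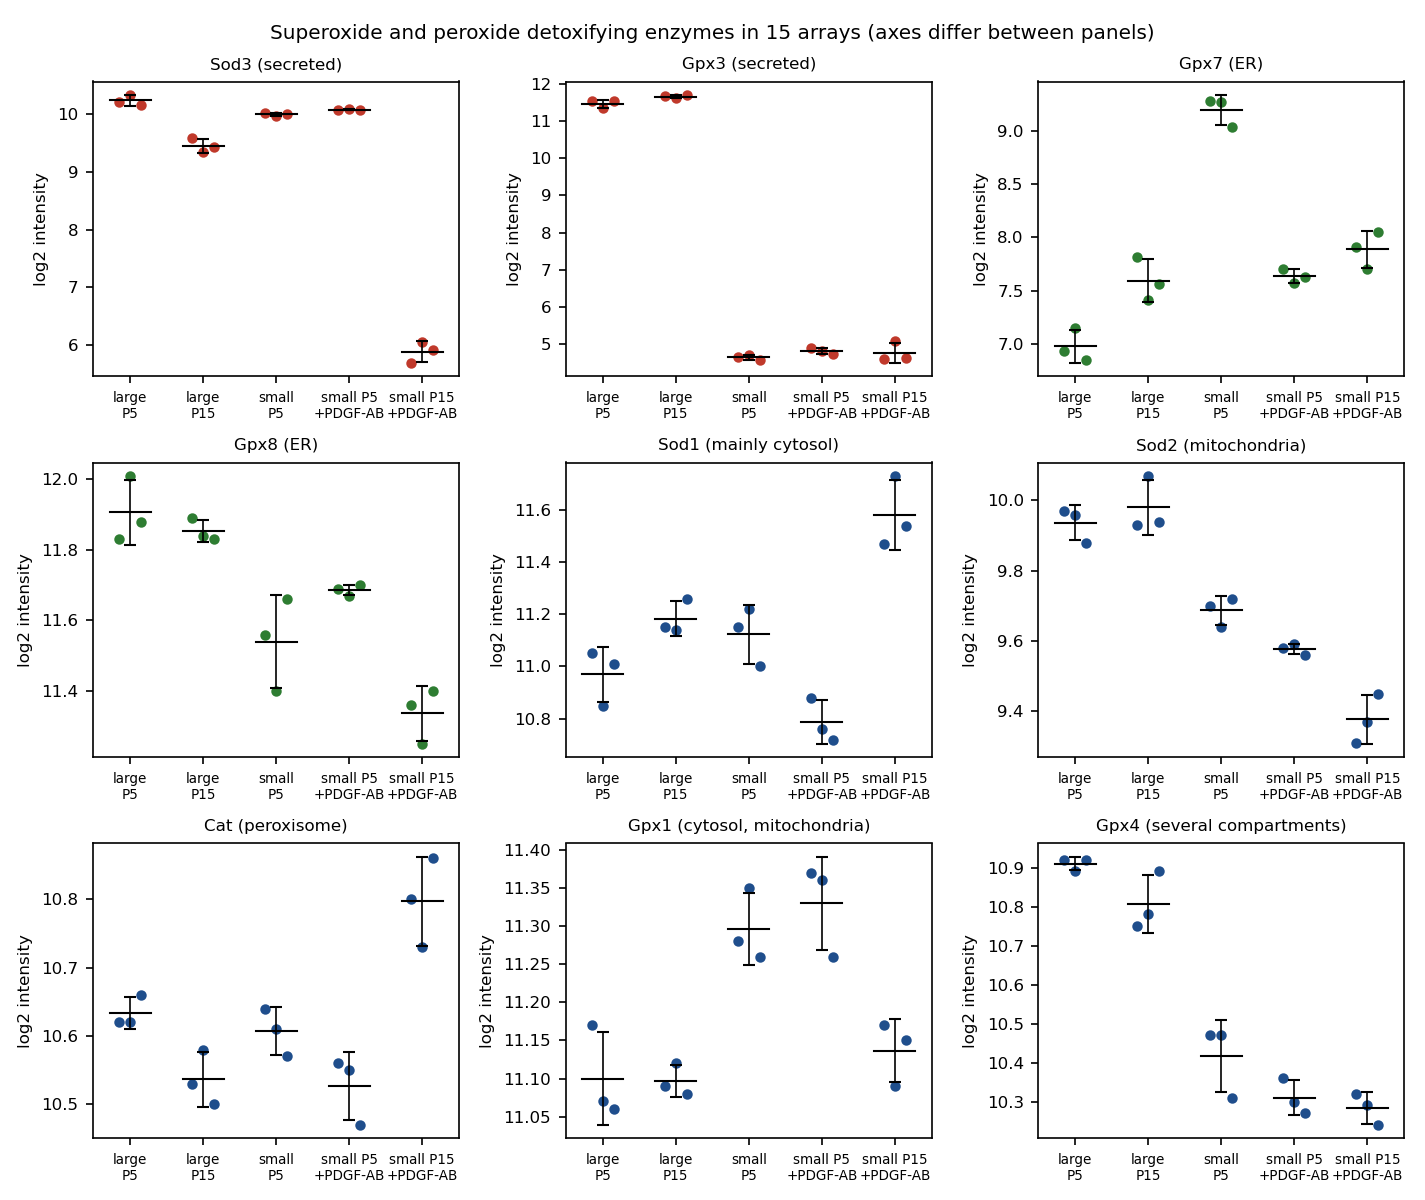
Log2 intensity of each enzyme gene (vertical axes, different in each panel) on the 3 arrays of each of the 5 groups, with points for arrays, long bars for group means and whiskers for 1 SD. Gpx3 separates large from small colonies, Sod3 drops in treated small colonies at passage 15, and Gpx7 is highest in untreated small colonies, while the axes of Cat and Gpx1 each span well under 1 log2 unit.

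The secreted dismutase gene Sod3 fell steeply with passage in treated small colonies and less in large ones. On the 3 arrays of each group it read 10.22, 10.34 and 10.17 in large colonies at passage 5, and 9.59, 9.35 and 9.43 in large colonies at passage 15. It read 10.02, 9.98 and 10.01 in untreated small colonies, and 10.08, 10.10 and 10.08 in treated small colonies, at passage 5. In treated small colonies at passage 15 the arrays read 5.69, 6.05 and 5.91, all over 3 log2 units below every other array. The fall with passage was 18.4-fold in treated small colonies (change -4.20, SE 0.082, adjusted p = 6.48e-16) and 1.73-fold in large colonies (change -0.79, SE 0.082, adjusted p = 7.75e-07). The difference between these passage changes was called (-3.41, SE 0.12, adjusted p = 1.64e-12). No neighbouring groups in the order of Sod3 levels overlapped, from large colonies at passage 5 through treated small, untreated small and large colonies at passage 15 to treated small ones at passage 15, although the first 3 means lay within 0.24 of each other. Over the same passages of treated small colonies the mean log2 level of the 6 leukocyte markers, 3 of them above the median level, lay between 5.58 and 5.62 and then between 4.96 and 5.06. That difference came mostly from Lyz2, which went from 8.93 ± 0.04 to 5.35 ± 0.23. Of the 6, Lyz2 and Cd14 fell and 3 rose (Ptprc, Adgre1 and Csf1r, by 0.17 to 0.24), with a median change of 0.04, and with any 1 of the 6 arrays left out 0 to 2 of those 3 passed. The mean of the 5 smooth muscle markers, 4 above the median level, lay between 9.47 and 9.52 and then between 8.52 and 8.65, mostly through Cnn1, which went from 10.08 ± 0.059 to 6.11 ± 0.21. Acta2 fell too (-0.37), and Myh11, Tagln and Smtn were not called (median of the list -0.10). Of the leukocyte markers 2 had a mean below the array lower quartiles at passage 5. The mean of the 5 cardiomyocyte markers, 1 above the median level, lay between 6.07 and 6.13 and then between 5.82 and 5.89. Of these 5, 1 rose and 1 fell (median -0.05). The pericyte mean lay between 5.91 and 6.01 and then higher, between 6.26 and 6.32. That of the fibroblast markers lay between 8.66 and 8.70 and then between 8.65 and 8.67. Of the 6 fibroblast markers 4 rose and 1 fell (median 0.33), where 24.6% and 21.4% of all genes did. Mki67, a proliferation marker, went from 5.60 ± 0.12 to 8.97 ± 0.17. The part of these in the Sod3 change was not tested.

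Gpx3, the peroxidase of plasma and matrix, separated the colony types. Large colonies read 11.53, 11.35 and 11.53 at passage 5 and 11.67, 11.61 and 11.70 at passage 15. Untreated small colonies read 4.65, 4.71 and 4.58, treated small ones 4.89, 4.82 and 4.74 at passage 5, and treated small ones 4.59, 5.07 and 4.62 at passage 15. The 9 small-colony arrays thus lay below the median of every array and not far above the lower quartiles, so that folds against them depend on background. At passage 5 large colonies were 113-fold above untreated small ones (change 6.82, SE 0.10, adjusted p = 2.22e-17). Against treated small colonies, large ones were higher 101-fold at passage 5 (treated minus large -6.65, SE 0.10, adjusted p = 4.07e-17) and 119-fold at passage 15 (-6.90, SE 0.10, adjusted p = 1.43e-17). Neither passage nor PDGF-AB moved Gpx3 past the threshold, with changes of 0.19 with passage in large colonies (95% interval -0.02 to 0.41, adjusted p = 0.16), 0.17 with PDGF-AB (-0.05 to 0.38, adjusted p = 0.231) and -0.05 with passage in treated small colonies (-0.27 to 0.16, adjusted p = 0.69). The last rests on treated small replicate 2 at passage 15, which read 5.07. Without that array the change was -0.21 and passed (adjusted p = 0.03).

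Some markers differed between large and small colonies in the direction of Gpx3 and others in the opposite one. Rgs5, a pericyte marker, stood at 8.42 ± 0.09 and 6.73 ± 0.063 in large colonies at passages 5 and 15 and between 4.71 and 5.51 on average in the small groups. Thy1, a fibroblast surface marker, stood at 10.33 ± 0.05 and 10.63 ± 0.083 in large and between 5.11 and 5.49 in small colonies. Other markers were lower in large than in untreated small colonies at passage 5, among them the pericyte markers Cspg4 (-0.89) and Notch3 (-1.03) and the collagen genes Col1a1 (-1.95) and Col1a2 (-1.75). Of the 5 pericyte markers 2 were higher and 2 lower (median 0.08), and of the 6 fibroblast markers 3 were higher and 2 lower (median 0.18). Over all genes 18.2% were higher and 18% lower. One of the higher pericyte calls, that of Kcnj8, was lost without large replicate 2 (adjusted p = 0.104) or 3 (0.0999) or untreated small replicate 1 (0.0984), 2 (0.0873) or 3 (0.0611). Over the whole lists, the mean log2 level of the pericyte markers was 6.19 to 6.28 in large and 5.90 to 5.98 in untreated small colonies at passage 5, and that of the fibroblast markers 9.78 to 9.82 and 9.27 to 9.33. At passage 15 the pericyte mean was 6.32 to 6.35 in large and 6.26 to 6.32 in treated small colonies. The fibroblast mean was 10.73 to 10.76 and 8.65 to 8.67 there. Of the 6 fibroblast markers 2 were higher and 4 lower in treated small colonies at passage 15 (median -2.05), against 29.2% and 24.2% of all genes. In treated small colonies at passage 5 the fibroblast mean was 8.66 to 8.70. No marker of either list had a group mean below the lower quartiles of the arrays. In bulk RNA fewer expressing cells and less RNA per cell cannot be told apart, and the part of cell makeup in the Gpx3 difference was not tested.

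Gpx7, an ER peroxidase that passes oxidising power to protein disulphide isomerases, was highest in untreated small colonies. Those arrays read 9.28, 9.27 and 9.03, above all 12 others. With PDGF-AB the arrays read 7.70, 7.57 and 7.63, a 2.94-fold fall (change -1.56, SE 0.11, adjusted p = 2.15e-08). Large colonies at passage 5 were lowest at 6.93, 7.15 and 6.85, 4.65-fold below untreated small ones (change -2.22, SE 0.11, adjusted p = 6.82e-11). Both differences share the 3 untreated small arrays. With passage Gpx7 rose 1.54-fold in large colonies (change 0.62, SE 0.11, adjusted p = 2.44e-04), where passage 15 read 7.81, 7.41 and 7.56.

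In treated small colonies Gpx7 read 7.91, 7.70 and 8.05 at passage 15, touching the range at passage 5. That change of 0.26 did not pass (SE 0.11, adjusted p = 0.0712). It passed without treated small replicate 2 at passage 15 (0.35, adjusted p = 0.0269), under cyclic loess (0.048), with genes of below-median level left out (0.0431), with only the arrays compared (0.0413), with trend and robust variance moderation (0.047) and with array weights (0.0126). At passage 15 treated small colonies were above large ones by 0.29 (SE 0.11, adjusted p = 0.0353), although the arrays overlapped. This call was lost with arrays centred on their medians (0.20, adjusted p = 0.156), without large replicate 2 (adjusted p = 0.165) or 3 (0.0867), and without treated small replicate 1 (0.0801) or 3 (0.156). At passage 5 the same contrast was 0.66 (SE 0.11, adjusted p = 1.47e-04) with no overlap.

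Gpx8, the membrane-bound ER peroxidase, varied far less. Its arrays read 11.83, 12.01 and 11.88 in large colonies at passage 5, 11.89, 11.84 and 11.83 in large colonies at passage 15, and 11.56, 11.40 and 11.66 in untreated small ones. Treated small colonies read 11.69, 11.67 and 11.70 at passage 5 and 11.36, 11.25 and 11.40 at passage 15. The large groups overlapped each other and lay above all small arrays. Large colonies exceeded untreated small ones by 0.37 at passage 5 (SE 0.07, adjusted p = 4.91e-04), and treated small colonies fell by 0.35 with passage (change -0.35, SE 0.07, adjusted p = 6.17e-04). With PDGF-AB the change of 0.14 did not pass (adjusted p = 0.142), and it passed without untreated small replicate 3 (0.20, adjusted p = 0.047). Treated small colonies lay 0.22 below large ones at passage 5 (change -0.22, SE 0.07, adjusted p = 0.0193), a call lost without large replicate 2 (adjusted p = 0.0993) or treated replicate 2 (0.0578). At passage 5 the ER peroxidases thus went opposite ways between the colony types, Gpx7 lower and Gpx8 higher in large colonies. At passage 15 Gpx8 was again lower in treated small than in large colonies (-0.51, SE 0.07, adjusted p = 1.46e-05), while the Gpx7 arrays overlapped.

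Sod1, the copper-zinc dismutase of the cytosol, moved against Sod3 in treated small colonies. It read 10.88, 10.76 and 10.72 at passage 5 and 11.47, 11.73 and 11.54 at passage 15, the highest of all groups. The rise was 1.74-fold (change 0.80, SE 0.081, adjusted p = 4.23e-07). With PDGF-AB Sod1 was 1.27-fold lower at passage 5 (change -0.34, SE 0.081, adjusted p = 0.00438), from 11.15, 11.22 and 11.00 in untreated small colonies. Large colonies read 11.05, 10.85 and 11.01 at passage 5 and 11.15, 11.14 and 11.26 at passage 15, without overlap. That difference of 0.21 did not pass (SE 0.081, adjusted p = 0.0535). It passed without large replicate 1 at passage 5 (0.25, adjusted p = 0.0412), with genes of below-median level left out (0.0253), with trend and robust variance moderation (0.0212) and with array weights (0.0413). The passage changes of the colony types differed by 0.59 (SE 0.11, adjusted p = 8.64e-04).

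Ccs, the chaperone that loads copper into SOD1, was among 5 genes of copper and manganese supply. It stood at 7.14 ± 0.063 in untreated small colonies, 6.64 ± 0.04 with PDGF-AB and 6.86 ± 0.093 in treated colonies at passage 15. Its fall with PDGF-AB (change -0.50, adjusted p = 7.55e-06) and rise with passage in treated small colonies (0.22, adjusted p = 0.00515) had the sign of the Sod1 changes, and the rise was lost with arrays centred on their medians (0.16, adjusted p = 0.0628). In large colonies Ccs rose with passage (0.39, adjusted p = 4.51e-05). Between treated small and large colonies at passage 15 the signs were opposite, with -0.51 for Ccs (adjusted p = 1.96e-06) and 0.40 for Sod1. Of the 5 genes 0 rose and 2 fell with PDGF-AB, where 10.7% and 18.2% of all genes did. With passage in treated small colonies 2 rose (Ccs and Slc31a1) and 2 fell (Slc39a14 and Atox1), against 24.6% and 21.4% of all genes. The call of Slc31a1 was lost without treated small replicate 1 (adjusted p = 0.0962), 2 (0.0807) or 3 (0.0575) at passage 5 or 1 (0.0616) or 2 (0.144) at passage 15, and that of Atox1 without replicate 1 (0.106) or 2 (0.06) at passage 5 or 2 (0.131) or 3 (0.057) at passage 15.

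Sod2, the manganese dismutase of the mitochondrial matrix, followed colony type. It read 9.97, 9.96 and 9.88 in large colonies at passage 5 and 9.93, 10.07 and 9.94 at passage 15, which overlapped. The small groups lay lower and did not overlap each other, with 9.70, 9.64 and 9.72 untreated, 9.58, 9.59 and 9.56 treated at passage 5, and 9.31, 9.37 and 9.45 treated at passage 15. Large colonies exceeded untreated small ones by 0.25 (SE 0.058, adjusted p = 0.0027) and treated small ones by 1.29-fold at passage 5 and 1.52-fold at passage 15 (adjusted p = 9.49e-05 and 2.70e-07). The change of -0.11 with PDGF-AB did not pass (95% interval -0.24 to 0.01, adjusted p = 0.16). The fall with passage in treated small colonies (change -0.20, SE 0.058, adjusted p = 0.0105) was lost without replicate 1 at passage 15 (-0.16, adjusted p = 0.0537).

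Cat, the catalase of peroxisomes, had a narrow range. Arrays read 10.62, 10.62 and 10.66 in large colonies at passage 5 and 10.53, 10.58 and 10.50 at passage 15. Untreated small colonies read 10.64, 10.61 and 10.57, and treated ones 10.56, 10.55 and 10.47 at passage 5. Treated small colonies at passage 15 read 10.80, 10.73 and 10.86, above the other 12 arrays. The rise with passage there was 1.21-fold (change 0.27, SE 0.054, adjusted p = 5.19e-04), and the change of -0.09 in large colonies did not pass (95% interval -0.21 to 0.02, adjusted p = 0.2). The difference between these passage changes was 0.37 (SE 0.076, adjusted p = 0.00145). Between untreated large and small colonies Cat differed by 0.03 (95% interval -0.09 to 0.14, adjusted p = 0.724).

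Gpx1, the abundant peroxidase of cytosol and mitochondria, had the smallest span of the 9 genes. Large colonies read 11.17, 11.07 and 11.06 at passage 5 and 11.09, 11.12 and 11.08 at passage 15, with a change of 0.00 (95% interval -0.12 to 0.12, adjusted p = 0.987). Untreated small colonies read 11.28, 11.35 and 11.26 and treated ones 11.37, 11.36 and 11.26 at passage 5, above all other arrays. Treated ones at passage 15 read 11.17, 11.09 and 11.15, a fall of 1.14-fold with passage (change -0.19, SE 0.056, adjusted p = 0.00965). Large colonies lay 0.20 below untreated small ones (change -0.20, SE 0.056, adjusted p = 0.00965), which no longer passed when untreated small replicate 2 was left out (-0.17, adjusted p = 0.0502).

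Gpx4, the peroxidase that reduces lipid peroxides in membranes and guards against ferroptosis, split the colony types as Gpx3 did, on a far smaller scale. Large colonies read 10.92, 10.89 and 10.92 at passage 5 and 10.75, 10.78 and 10.89 at passage 15. Small colonies read 10.47, 10.47 and 10.31 untreated, 10.36, 10.30 and 10.27 treated at passage 5, and 10.32, 10.29 and 10.24 treated at passage 15. All 6 large arrays lay above all 9 small ones. Large colonies exceeded untreated small ones 1.41-fold (change 0.49, SE 0.06, adjusted p = 4.78e-06), and treated small ones lay 1.52-fold below them at passage 5 and 1.44-fold at passage 15 (adjusted p = 5.27e-07 and 2.12e-06). The other Gpx4 probe set gave 10.68 ± 0.014 and 10.57 ± 0.068 in large colonies and 10.18 ± 0.10, 10.09 ± 0.054 and 10.06 ± 0.054 in the small groups, in the same order. None of PDGF-AB, passage in large and passage in treated small colonies moved Gpx4 past the threshold (changes -0.11, -0.11 and -0.03).

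**Figure D2:**
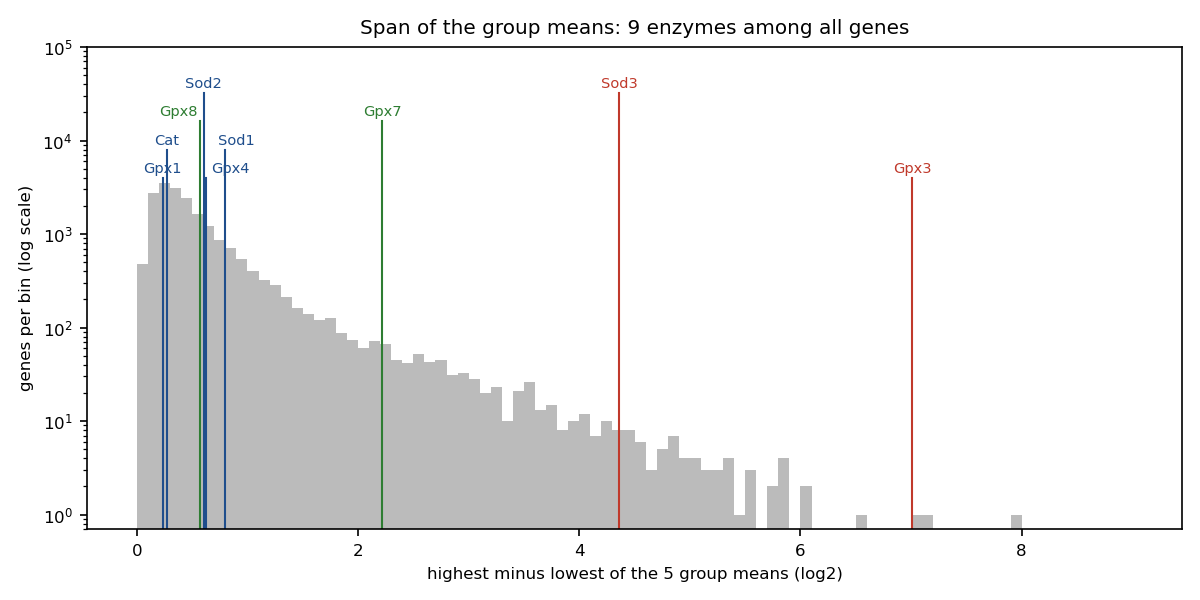
Histogram of the highest minus the lowest of the 5 group means (log2, horizontal axis) over all 19938 genes, with the number of genes per bin on a log scale, and lines for the 9 enzyme genes. Gpx3 and Sod3, at 7.01 and 4.36, lie far to the right, Gpx7 at 2.22, and the other 6 at or under 0.80.

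Set side by side, the genes of the secreted enzymes had the widest spans of group means, 7.01 for Gpx3 and 4.36 for Sod3, or 129-fold and 20.5-fold. Only 2 of all genes had a wider span than Gpx3, and 66 a wider one than Sod3. Gpx7 spanned 2.22 and Gpx8 0.57. The 5 genes of enzymes of the cytosol, mitochondria and peroxisomes spanned 0.23 (Gpx1), 0.27 (Cat), 0.60 (Sod2), 0.63 (Gpx4) and 0.80 (Sod1), from 1.18-fold to 1.74-fold. The median span over all genes was 0.40, so that Cat and Gpx1 lay below it and Sod1, Sod2, Gpx4 and Gpx8 somewhat above. The secreted class holds 2 genes, and no test was made of the difference between classes.

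The secreted enzymes did not vary in the same way. Against treated small colonies, large ones were apart by treated minus large values of -6.65 and -6.90 for Gpx3 at passages 5 and 15, and of -0.16 and -3.57 for Sod3. Over the 15 arrays Pearson's r between them was 0.349. Gpx3 went most closely with Gpx4 (r = 0.956) and Sod2 (r = 0.871), and Sod3 went against Sod1 (r = -0.851) and Cat (r = -0.813). These correlations describe 15 arrays that fall in 5 groups, and 1 group, treated small colonies at passage 15, carries much of the range of Sod3.

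The genes whose values followed each enzyme most closely over the 15 arrays, among 6615 genes searched, were sought for description. For Gpx3 they were Fgf7 (a growth factor, r = 0.998), Thy1, Kcnab1 (each 0.997), Cryzl2 and Smoc1 (each 0.996). For Sod3 they were Stox2 (r = 0.99), Tceal1 (0.989), F3 (tissue factor, 0.988), Akr1b10 (0.988) and Sema6d (0.985). Ets2 (0.976) came first for Gpx7, Spsb1 (0.958) for Gpx8, Mib1 (0.974) for Sod1, Ankrd44 (0.986) for Sod2, Zbtb18 (0.958) for Cat, Fnbp4 (0.959) for Gpx1 and Tnxb (0.985) for Gpx4. Stox2, like Sod3, stood at 4.68 ± 0.097 in treated small colonies at passage 15 and between 6.93 and 7.83 on average elsewhere. Tnxb, which encodes a matrix tenascin, stood at 9.09 ± 0.22 and 8.72 ± 0.19 in large colonies and between 5.20 and 6.04 in small ones.

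**Figure D3:**
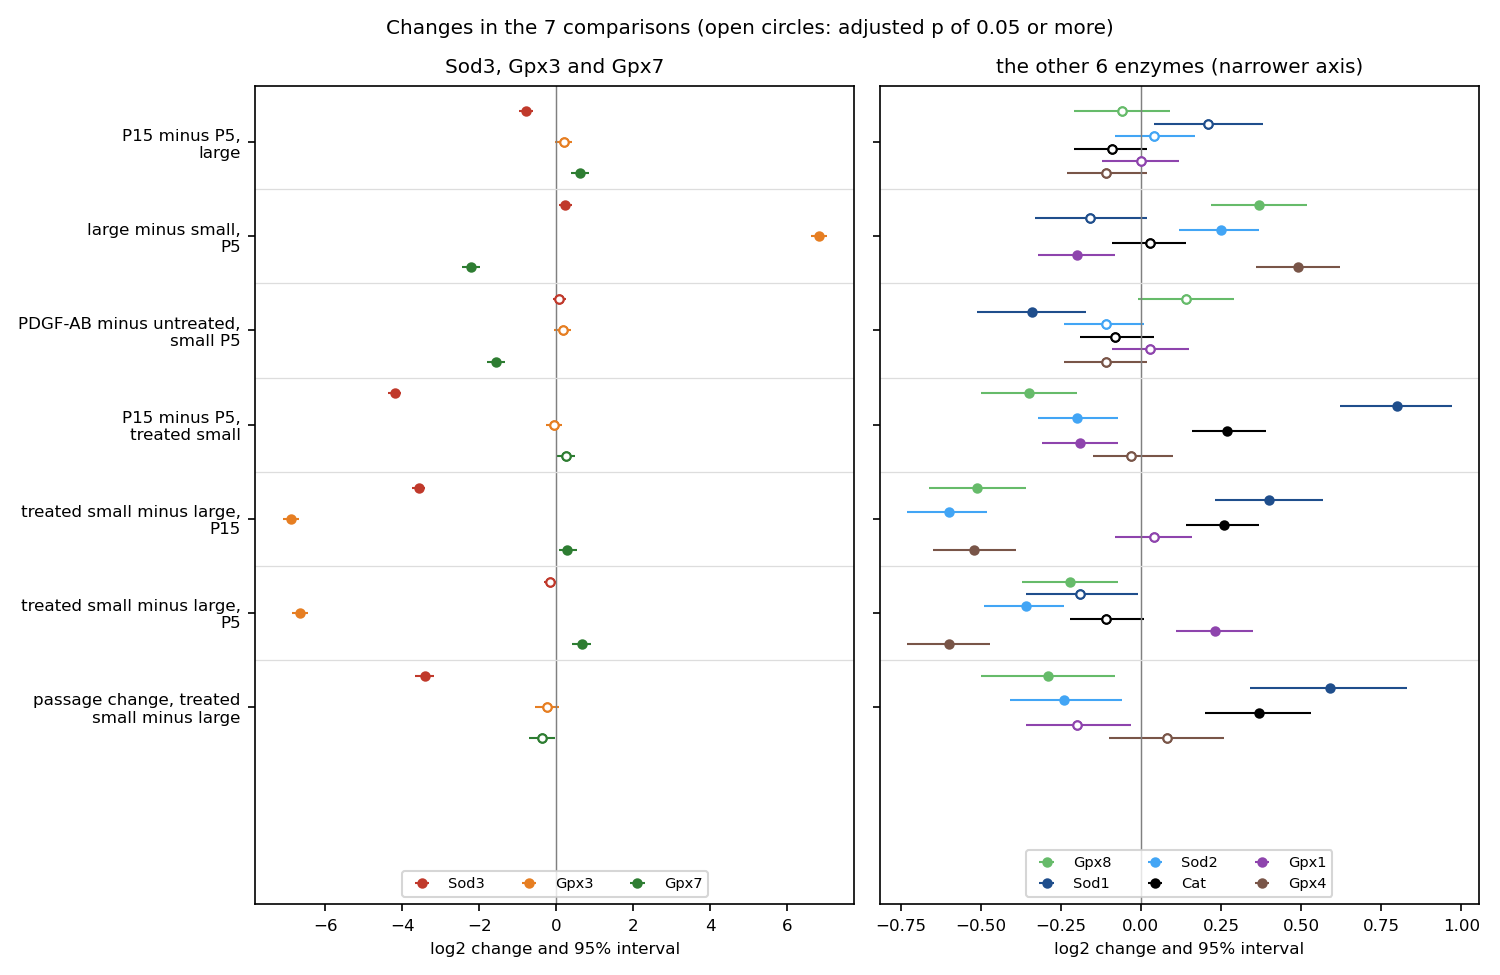
Log2 change with its 95% interval (horizontal axes, narrower on the right) of each enzyme gene in the 7 comparisons named on the vertical axis; open circles did not pass an adjusted p of 0.05. The secreted enzymes and Gpx7 reach changes beyond 2 log2 units, and the other 6 genes stay within 0.80 of 0.

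With passage in untreated large colonies, 1 of the 9 genes rose (Gpx7) and 1 fell (Sod3), where 36.1% of all genes were called (17.4% higher and 18.7% lower). The arrays of the groups did not overlap for 6 of 9, against 44.5% of all genes, and the 5 cytosolic, mitochondrial and peroxisomal enzymes changed by -0.11 to 0.21 with no call. The median size of change, regardless of sign, was 0.11 over the 9 genes and 0.141 over all genes. Without large replicate 1 at passage 5 Sod1 also passed (adjusted p = 0.0412), which made 3 of 9. Mki67 went from 5.41 ± 0.036 to 8.18 ± 0.16 over the same passages.

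Between untreated large and small colonies at passage 5, 5 of the 9 genes were higher in large colonies (Gpx3, Gpx4, Gpx8, Sod2 and Sod3) and 2 lower (Gpx7 and Gpx1), against 36.2% of all genes called in either direction (18.2% higher and 18% lower). Arrays did not overlap for 7 of 9, and for 44.9% of all genes. Sod3 was higher by only 0.24 (SE 0.082, adjusted p = 0.0302). That call was lost without large replicate 2 (0.19, adjusted p = 0.126) and without untreated small replicate 1, 2 or 3 (0.0576, 0.0812 and 0.0604). Without untreated small replicate 2 that of Gpx1 was lost too (0.0502), leaving 5 calls of 9. Mki67 was 5.41 ± 0.036 in large colonies and 6.71 in each of the 3 small ones, and its part in these differences was not tested.

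With PDGF-AB 2 of the 9 genes fell in small colonies, Gpx7 and Sod1, and 0 rose, where limma called 28.9% of all genes (10.7% higher and 18.2% lower). Arrays of the groups were apart for 7 of 9, and for 43% of all genes. The secreted enzymes were not called, Sod3 changing by 0.08 (95% interval -0.09 to 0.26, adjusted p = 0.486). The other 6 changed by between -0.11 and 0.17. Among related genes, 1 of 6 of the thioredoxin system rose and 4 fell, 3 of 5 of glutathione supply fell, 4 of 8 of selenoprotein synthesis and selenium supply fell and 1 of 4 peroxiredoxins fell. Of the thioredoxin genes 2 fell without treated replicate 2, where the calls of Txn2 (adjusted p = 0.0696) and Srxn1 (0.0575) were lost, and 3 without any other single array. Txnip, an inhibitor of thioredoxin, rose (0.69, adjusted p = 2.15e-08), while Prdx3, the mitochondrial peroxiredoxin, fell (-0.52, adjusted p = 3.46e-06). So did Slc7a11, which imports cystine for glutathione synthesis (-1.05, adjusted p = 6.87e-08), and Selenop, the plasma carrier of selenium (-0.79, adjusted p = 7.01e-07).

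In treated small colonies 6 of the 9 genes changed with passage, Sod1 and Cat up and Sod3, Gpx8, Sod2 and Gpx1 down. Among all genes 46% were called (24.6% higher and 21.4% lower). Arrays were apart for 6 of 9, and for 54.9% of all genes. Of the 9 genes 8 were called without replicate 2 at passage 15, where Gpx3 and Gpx7 also passed, and 5 without replicate 1 at passage 15, where Sod2 did not. At passage 15 treated small colonies differed from large ones in 8 of 9 genes, with 3 higher (Sod1, Cat and Gpx7) and 5 lower (Sod3, Gpx3, Gpx8, Sod2 and Gpx4), where 53.4% of all genes were called (29.2% higher and 24.2% lower). Arrays were apart for 7 of 9, and for 60.7% of all genes. Of the called genes 54.6% were higher as deposited and 36.5% with arrays centred on their medians, but 7 of these 8 enzyme genes kept their direction and call, Gpx7 losing its call. At passage 5 the same contrast called 6 of 9, with Gpx7 and Gpx1 higher and Gpx3, Gpx8, Sod2 and Gpx4 lower, against 35.7% of all genes (14.8% higher and 20.9% lower). Arrays were apart for 8 of 9, and for 43.9% of all genes. Sod1, which was not called there (-0.19, adjusted p = 0.0925), passed without large replicate 2 (-0.25, adjusted p = 0.0394), with genes of below-median level left out (0.0457), with trend and robust variance moderation (0.0429) and with array weights (0.045). Cat (-0.11, adjusted p = 0.146) passed with trend and robust moderation (0.0481). These contrasts share arrays with each other and with the passage comparisons.

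The difference between the passage changes of treated small and large colonies was called for 5 of the 9 genes, against 34.4% of all genes (18.6% upward and 15.9% downward). The change was lower in treated small than in large colonies for Sod3 (-3.41), Gpx8 (-0.29) and Sod2 (-0.24), and higher for Sod1 (0.59) and Cat (0.37). In large colonies Sod2 changed by 0.04 and Cat by -0.09, neither called, and in treated small colonies by -0.20 and 0.27. The calls of Gpx8 and Sod2 had adjusted p = 0.0332 and 0.0336. Both were lost without large replicate 3 at passage 5 (adjusted p = 0.0699 and 0.0866) or treated small replicate 1 (0.0571 and 0.0558) or 2 (0.0516 and 0.0692) at passage 5, which left 3 calls. Both were also lost without large replicate 2 (0.0505 and 0.086) or treated small replicate 2 (0.0828 and 0.0547) at passage 15. Gpx8 alone was lost without large replicate 1 at passage 5 (0.0718) or 15 (0.0693) or treated small replicate 3 at passage 5 (0.0574), and Sod2 alone without treated small replicate 1 at passage 15 (0.0837). Gpx7 (-0.37, adjusted p = 0.0824) passed without large replicate 2 at passage 5 (0.0394) or 15 (0.0377) or treated small replicate 3 at passage 15 (0.0451), and with arrays centred on their medians (0.0472). Gpx1 (-0.20, adjusted p = 0.0684) passed without large replicate 1 (0.0367) or treated small replicate 3 (0.041) at passage 5, with centred arrays (0.0389), with genes of below-median level left out (0.032), with trend and robust moderation (0.0121) and with array weights (0.0355). Gpx3 did not pass (-0.25, adjusted p = 0.193), and passed without treated small replicate 2 at passage 15 (-0.40, adjusted p = 0.00567). Of all called differences 53.9% were upward as deposited and 39% with centred arrays.

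Other genes of peroxide metabolism were taken from lists, given by counts and medians with no test of a list. Of 13 genes of peroxisome import and oxidation, the compartment of catalase, 9 fell and 1 rose with passage in treated small colonies (median -0.37, against 0.051 over all genes, of which 21.4% fell and 24.6% rose). The 1 that rose, Hsd17b4, was not called without treated small replicate 3 at passage 5 (adjusted p = 0.0745) or 2 at passage 15 (0.0862). In large colonies the median was 0.02, and 2 of the 13 fell and 0 rose (18.7% and 17.4% of all genes). Ehhadh fell, with changes of -0.50 to -0.41 over 14 alternatives, all of them called. Pex11a fell too (-0.26, adjusted p = 0.0126). That call was lost without large replicate 3 at passage 15 (-0.17, adjusted p = 0.0798) and with only the arrays compared (0.0547). Pex11a, which promotes peroxisome division, went from 7.37 ± 0.08 to 6.39 ± 0.04 in treated small colonies (-0.98, adjusted p = 1.54e-08). The import genes Pex14 (-0.50, adjusted p = 9.4e-06) and Pex3 (-0.42, adjusted p = 4.7e-05) fell as well. Cat rose there, as given above, so that it moved against most of this list. The difference of the passage changes was called downward for 7 of the 13 genes and upward for 0, against 15.9% and 18.6% of all genes. The counts of 9 and 7 stayed the same whichever 1 array of those compared was left out.

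Of 8 genes of selenoprotein synthesis and selenium supply, 2 rose and 3 fell with passage in treated small colonies (median -0.07, against 0.051 over all genes, of which 24.6% rose and 21.4% fell). Eefsec, the factor that brings selenocysteine to the ribosome, rose from 8.81 ± 0.11 to 9.71 ± 0.052 (adjusted p = 1.47e-08), and Selenop fell from 9.93 ± 0.034 to 8.36 ± 0.17 (adjusted p = 2.7e-11). In large colonies Eefsec rose too (0.59, adjusted p = 3.5e-06), and Selenop stood at 10.33 ± 0.021 and 10.51 ± 0.066 without a call. With passage in treated small colonies the selenoprotein genes Gpx1, Gpx3 and Gpx4 changed by -0.19, -0.05 and -0.03, of which that of Gpx1 was called, and differences among them were not tested.

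Peroxiredoxins, which reduce peroxide with electrons from thioredoxin, were measured for 4 of 6 genes. With passage 1 rose in large colonies, Prdx3, and 2 in treated small ones, Prdx3 and Prdx2, where 17.4% and 24.6% of all genes rose. The call of Prdx2 was lost with the mean over its probe sets (0.12, adjusted p = 0.123) and with arrays centred on their medians (0.0904). It was also lost with only the arrays compared (0.0533) and without treated small replicate 2 at passage 15 (0.0782). Prdx3 was higher at passage 15 in large (0.65, adjusted p = 9.03e-08) and treated small colonies (0.68, adjusted p = 3.32e-08) and lower in treated small than in large colonies at either passage (-0.95 and -0.92). Sod2, in the same compartment, changed by 0.04 and -0.20 with passage. Among 5 genes of glutathione supply and recycling, 4 fell with passage in large colonies (median -0.34, against -0.042 over all genes, of which 18.7% fell), including Slc7a11 (-0.95), Gclc (-0.34) and Gss (-0.32). In treated small colonies 2 rose and 2 fell (24.6% and 21.4% of all genes), with Slc7a11 going from 6.45 ± 0.10 to 9.04 ± 0.063 (2.59, adjusted p = 1.6e-13) and Gsr, which regenerates glutathione, up by 0.45 (adjusted p = 8.85e-05).

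Of 6 genes of the thioredoxin system 1 rose and 1 fell with passage in large colonies, where 17.4% and 18.7% of all genes did. In treated small ones 3 rose and 1 fell, against 24.6% and 21.4% of all genes, and 2 to 4 rose with any 1 array left out. Txnip fell with passage in large and in treated small colonies (-0.61 and -0.74), and mitochondrial Txn2 rose in each (0.34 and 0.33). Of 15 measured sources of superoxide and peroxide 2 rose and 4 fell with passage in large colonies (17.4% and 18.7% of all genes). With any 1 array left out 4 to 6 of them fell. In treated small ones 4 rose and 3 fell (24.6% and 21.4% of all genes), and with any 1 of the 6 arrays left out 1 to 3 rose. Nox4, an NADPH oxidase of fibroblasts that makes hydrogen peroxide, went from 7.84 ± 0.071 to 6.84 ± 0.084 with passage in treated small colonies (2-fold lower, adjusted p = 1.58e-09) and from 7.17 ± 0.046 to 6.85 ± 0.091 in large ones (-0.32, adjusted p = 8.1e-04). Maob, a mitochondrial amine oxidase that yields peroxide, fell from 7.18 ± 0.043 to 4.23 ± 0.18 in treated small colonies. The later level was at the highest array lower quartile (4.23), so that the size of this fall depends on background. In large colonies Maob fell too, with changes of -1.43 to -1.35 over 15 alternatives, all of them called. Of 9 genes of oxidative folding in the ER, where GPX7 and GPX8 act, 2 were higher and 4 lower in large than in untreated small colonies at passage 5 (18.2% and 18% of all genes). Ero1b (0.35) and Txndc5 (0.26) were the higher ones, and the call of Txndc5 was lost without large replicate 3 (adjusted p = 0.0548) or untreated small replicate 3 (0.0655). Ero1a, which makes peroxide while oxidising disulphide isomerases, stood at 11.40 ± 0.049 in untreated small and 10.17 ± 0.071 in large colonies at passage 5. It was lower by 1.22 in large colonies (adjusted p = 3.61e-11), and P4hb (-0.47), Pdia6 (-0.68) and Erp44 (-0.49) were lower as well, as was Gpx7. With passage in large colonies 3 of the 9 rose and 1 fell (median 0.14), against 17.4% and 18.7% of all genes. Ero1a was the 1 that fell (-1.14, adjusted p = 1.03e-10). Pdia6 and Pdia4 were among those that rose, as Gpx7 did. With PDGF-AB 3 of the 9 fell, P4hb (-0.34), Pdia6 (-0.36) and Pdia4 (-0.28), and 0 rose by limma (18.2% and 10.7% of all genes). Ero1a changed by 0.13 (adjusted p = 0.103).

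**Figure D4:**
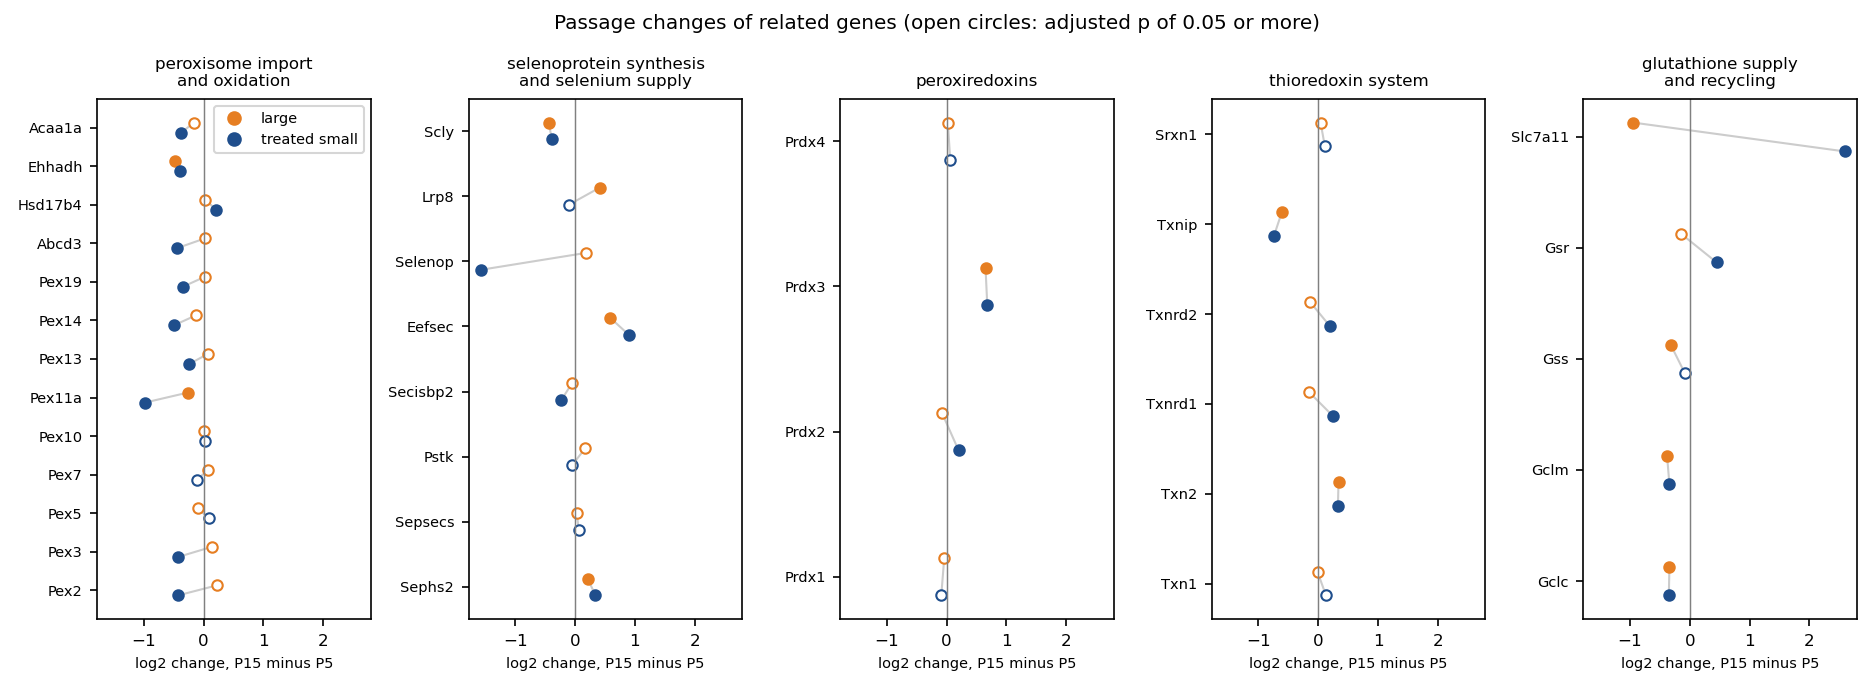
Log2 change from passage 5 to passage 15 (horizontal axes) of genes of 5 related lists, in untreated large (orange) and treated small colonies (blue), with open circles for adjusted p of 0.05 or more. Most peroxisome genes lie left of 0 in treated small colonies, and Slc7a11 lies on opposite sides of 0 in the colony types.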

How the data were processed

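RNA of 15 samples was measured on Affymetrix arrays, 3 a group. The deposited values are log2 intensities per probe set, as the authors processed them. RMA and limma are named per the submitters' processing notes, with no version or role. RMA quantile-normalises arrays, so where it was used shifts common to all genes are not seen, and intensities near background compress folds. The number of arrays limits precision.

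Of 28853 probe sets 21789 named a single gene, giving 19938 genes, and 999 genes had several probe sets, of which that with the highest mean was kept. Groups were taken from the labels and compared with limma 3.58.1 in R 4.3.3, by 1 fit over all 15 arrays with group means, empirical Bayes moderation and Benjamini-Hochberg adjustment over all genes, without a replicate block. The script was tested on simulated data. Enzyme genes, lists and tests were chosen with earlier results of these data known. Genes named beside the enzymes were the 5 with the highest Pearson correlation to each and members of the lists. Alternatives were arrays centred on medians, cyclic loess, low genes left out, all probe sets, the mean over probe sets, only the arrays compared, other variance moderation, array weights, a replicate block and leaving out each array.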

Additional observations from a re-analysis of the deposited data

Results flagged for a closer look

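For 5 genes the change with passage differed between treated small and large colonies by a test of the difference itself (limma, treated small minus large). It was -3.41 for Sod3, -0.29 for Gpx8, 0.59 for Sod1, -0.24 for Sod2 and 0.37 for Cat. Colony size and PDGF-AB cannot be told apart in this contrast. The calls of Gpx8 and Sod2 were lost without several single arrays (adjusted p = 0.0505 to 0.0828 for Gpx8 and 0.0547 to 0.0866 for Sod2). Both were lost without large replicate 3, treated small replicate 1 or treated small replicate 2 at passage 5, which left 3 of the 9 genes called. Those of Sod3, Sod1 and Cat held without each array in turn.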

How the results depend on the processing

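Over the alternatives, 935 of 999 values of the 9 genes kept direction and call, 27 lost a call, 28 gained one and 9 changed sign, none of these 9 a called value. With passage in large colonies Gpx1 was -0.00229 under cyclic loess, and with one array left out it ranged from -0.0197 to 0.039 and Sod2 from -0.0031 to 0.0649. With arrays centred on their medians Gpx1 was -0.00314 with PDGF-AB and -0.0535 in treated small against large colonies at passage 15. With passage in treated small colonies Gpx3 ranged from -0.211 to 0.0318 with one array left out. Leaving out genes of below-median level, 6829 genes in place of 10637 were called between treated small and large colonies at passage 15, where fewer genes were tested. Enzyme genes called for the difference of passage changes ranged from 3 to 6 with one array left out. Same-numbered arrays did not deviate together throughout (correlations 0.208, 0.0984 and 0.202 with passage in large colonies, and -0.277 to 0.197 elsewhere), so the numbers were not taken as pairs. A replicate block changed no call of the 9 genes, with 7242 genes called for passage in large colonies and 9206 in treated small ones. Of called genes with passage in treated small colonies 53.6% were higher as deposited and 41.7% with centred arrays.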
